A study of Mus musculus with 30 samples.

Results

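The genes described here are the mouse ubiquitin ligase and deubiquitinase families that carried m6A calls in wild-type embryonic stem cells. They were taken by name: symbols made of Usp, Rnf or Trim and a digit, or starting with Fbxo, Fbxl or Fbxw, with Usp1, Usp13, Rnf8, Rnf168 and Trim28 left out. From these, genes were selected on the WT calls: a gene entered when at least 1 of the 3 WT lists held a called bin in it. This gave 161 genes of the 13765 called in any list, and of the 10290 called in a WT list. The families were Usp with 42 genes, Rnf with 53, Trim with 24, Fbxo with 24, Fbxl with 11 and Fbxw with 7.

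The m6A mark, a methyl group carried by adenosines within RNA, was mapped by immunoprecipitation with an m6A antibody and sequencing in 5 mouse embryonic stem cell lines, each with 3 lists of called bins. METTL14 is the partner of the methyltransferase METTL3 in the complex that writes the mark. The KO line lacks Mettl14, and KO+13RK, KO+5RK and KO+WT are this knockout with METTL14 put back, as either of a pair of mutants that cannot be methylated at arginines (13RK and 5RK, as the labels name them) or as the wild-type protein. The WT line has its own Mettl14. All lines were kept in serum with leukemia inhibitory factor on gelatin. The sources used here do not say how many clones stand behind a line, which promoter drove the put-back protein, how much of it was made, or whether replicates were separate cultures, so the p-values below measure only the spread between these lists. The 9 lists of KO+13RK, KO+5RK and KO+WT are called the rescue lists.

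Ubiquitin is attached to proteins by a chain of E1, E2 and E3 enzymes and removed by deubiquitinases. The Usp genes encode the largest family of deubiquitinases. Rnf and Trim proteins mostly act as E3 ligases through a RING domain that brings the loaded E2 to the substrate, and F-box proteins are the substrate receptors of the cullin-based SCF ligases, named by the repeats that hold the substrate (Fbxl for leucine-rich, Fbxw for WD, Fbxo for others). In stem cells, m6A in a transcript is known to favour its decay, and the mark is usually densest near stop codons and in long internal exons. Usp6nl entered by its name only, since its product is a GTPase-activating protein.

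A called bin is a 100-nt window of a gene that the authors' list reports as enriched over input with a deposited q under 0.05. Lists differed in length, with 7777 ± 1258 bins in KO, 10105 ± 762 in KO+13RK, 12298 ± 985 in KO+5RK, 15206 ± 1714 in KO+WT and 22683 ± 474 in WT (mean ± SD, n = 3). Read depth is unknown, so an absent call is not an absent mark, and fewer transcripts cannot be told apart from less m6A per transcript. Of 10 embryonic stem cell markers, 6 to 10 were called per list. Of 8 fibroblast markers, 0 to 3 were called, Col1a2, Col3a1 and Acta2 in none of the 15 lists. Fn1, a fibroblast marker also made by early embryo cells, had 0 to 3 bins in each list of the 4 lines with the knockout, against 30, 23 and 23 in WT, and its part in the WT values was not tested.

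Since WT calls chose the genes, their values in WT are a description with no test. At the edge of the rule, 20 of the genes had a single bin in a single WT list, and 7 of these were called nowhere else. Just outside it lay 27 family genes with no WT call and at most 3 bins in any list. Usp26, a testis deubiquitinase on the X chromosome, was the most often called of these, with 1, 2 and 1 bins in KO+5RK and 2, 3 and 3 in KO+WT. Of the 161, 112 were called in all 3 WT lists, 25 in exactly 2 and 24 in exactly 1. There were 10 called in WT lists alone: Fbxo31, Fbxo41, Fbxo48, Fbxw18, Rnf10, Rnf144a, Rnf144b, Rnf6, Trim29 and Trim52.

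Taken as a set, the 161 genes held the fewest bins in KO and the most in WT. There were 94, 129 and 122 bins in KO, 177, 190 and 203 in KO+13RK, 254, 247 and 206 in KO+5RK, 290, 326 and 280 in KO+WT and 450, 432 and 439 in WT. No list of one line reached into the range of another line. The means were 115 ± 18.5 bins in KO, 190 ± 13.0 in KO+13RK, 236 ± 25.9 in KO+5RK, 299 ± 24.2 in KO+WT and 440 ± 9.07 in WT (SD, n = 3). The number of bins in these genes in KO was 38.5% of that in KO+WT, against 51.1% for all bins, whether or not they were the same bins. The mutants stood closer to the whole lists, with 63.6% against 66.5% of all bins in KO+13RK and 78.9% against 80.9% in KO+5RK. Over all genes with a WT call, selected as these were, the figures were 48.5% in KO, 65.3% in KO+13RK and 80.2% in KO+5RK. As a share of its list, the set took 1.48 ± 0.0572% of bins in KO, 1.88 ± 0.0877% in KO+13RK, 1.91 ± 0.0604% in KO+5RK, 1.97 ± 0.0694% in KO+WT and 1.94 ± 0.0351% in WT. With every list reduced to its 6328 bins of smallest p, the means were 101 in KO, 133 in KO+13RK, 125 in KO+5RK, 141 in KO+WT and 142 in WT.

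**Figure D1:**
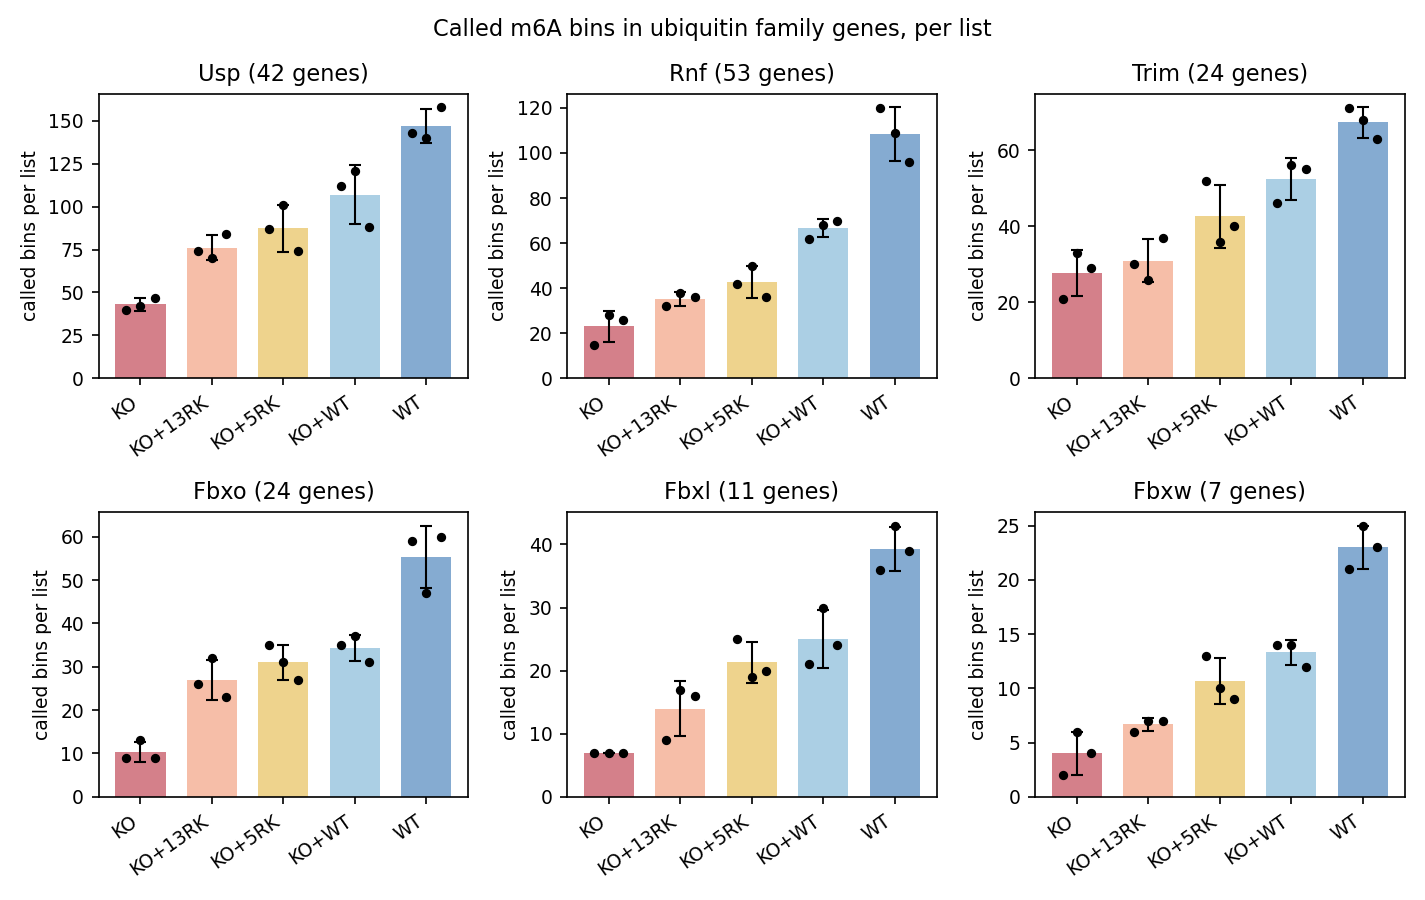
Called m6A bins per list (vertical axes, each from 0) in the 6 families, by line. Bars are means and error bars SDs of 3 lists, and each point is a list. In each family KO has the lowest mean and WT the highest, and in Usp KO lists hold 40 to 47 bins against 88 to 121 in KO+WT lists.

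The Usp deubiquitinases had 40, 42 and 47 bins in KO, 74, 70 and 84 in KO+13RK, 87, 101 and 74 in KO+5RK, 112, 121 and 88 in KO+WT and 143, 140 and 158 in WT. The KO lists lay below all others, every KO+13RK list lay below every KO+WT list, and KO+5RK lists overlapped both. The Rnf ligases had 15, 28 and 26 bins in KO, 32, 38 and 36 in KO+13RK, 42, 50 and 36 in KO+5RK, 62, 68 and 70 in KO+WT and 120, 109 and 96 in WT. Here every list of both mutants lay below every KO+WT list, and every KO list below every mutant list. The Trim ligases had 21, 33 and 29 bins in KO, 30, 26 and 37 in KO+13RK, 52, 36 and 40 in KO+5RK, 46, 56 and 55 in KO+WT and 71, 68 and 63 in WT. KO and KO+13RK lists overlapped in this family, in which the number of KO bins was 52.9% of that in KO+WT, against 40.2% in Usp and 34.5% in Rnf. Without Trim25, the only Trim gene called higher in KO by the test below, it was 36.6%. Trim32 and Trim44 also had higher means in KO than in KO+WT and were kept. No other family was counted without a gene, so this figure is not comparable with theirs.

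Among the F-box receptors, Fbxo genes had 9, 13 and 9 bins in KO, 26, 32 and 23 in KO+13RK, 35, 31 and 27 in KO+5RK, 35, 37 and 31 in KO+WT and 59, 47 and 60 in WT. Fbxl genes had 7 bins in each KO list, 9, 17 and 16 in KO+13RK, 25, 19 and 20 in KO+5RK, 21, 30 and 24 in KO+WT and 36, 43 and 39 in WT. Fbxw genes had 2, 6 and 4 bins in KO, 6, 7 and 7 in KO+13RK, 13, 10 and 9 in KO+5RK, 14, 14 and 12 in KO+WT and 21, 25 and 23 in WT. The number of KO bins was 30.1% of that in KO+WT in Fbxo and 28.0% in Fbxl, with Fbxw between them. Among the F-box families KO lists overlapped rescue lists only in Fbxw, where a KO list and a KO+13RK list both held 6 bins.

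The comparison of KO with KO+WT asks which of these transcripts regain m6A calls when wild-type METTL14 is put back, and uses no WT list. The number of bins per gene was tested with limma on log2(bins + 1), over the 8526 genes called in at least 3 of the 12 lists of the 4 lines with the knockout. Of the 161 genes, 130 passed this filter and 31 did not. At an adjusted p under 0.05 (Benjamini-Hochberg over all 8526 genes), 35 of the 130 had fewer bins in KO and 2 had more. On simulated lists this test made more false calls than its adjusted p aims for, so some of these calls may be false. Of all genes tested, 16.3% were called lower and 1.34% higher. Among genes that, like these, had a WT call, the shares were 18.0% lower and 0.958% higher, beside 26.9% and 1.54% of the 130. The median log2 difference was -0.86 over the 130 genes, -0.35 over all genes tested and -0.53 over those with a WT call. Every KO list lay below every KO+WT list in 45 of the 130 genes and above in 3 (Fbxl16, Trim25 and Usp39), against 21.4% and 2.01% of all genes. Of the 7624 tested genes with a WT call, 1798 lay below in this way and 125 above. Counts depended on how list length was treated: with lists of equal length, 12 were lower and 4 higher of 106 tested (all genes 9.61% and 5.95%), and with bins scaled to the list total 5 were lower and 14 higher (all genes 2.64% and 17.0%). Scaled before 1 was added, 12 were lower and 3 higher (all genes 6.52% and 2.64%). The first scaling moves every gene by the same amount, so a gene with equal bins in KO and KO+WT, such as Usp8, comes out 0.975 higher there. This holds also for genes with no bin in either line, such as Fbxw5. The median over all genes tested was 0.62 in that scaling.

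**Figure D2:**
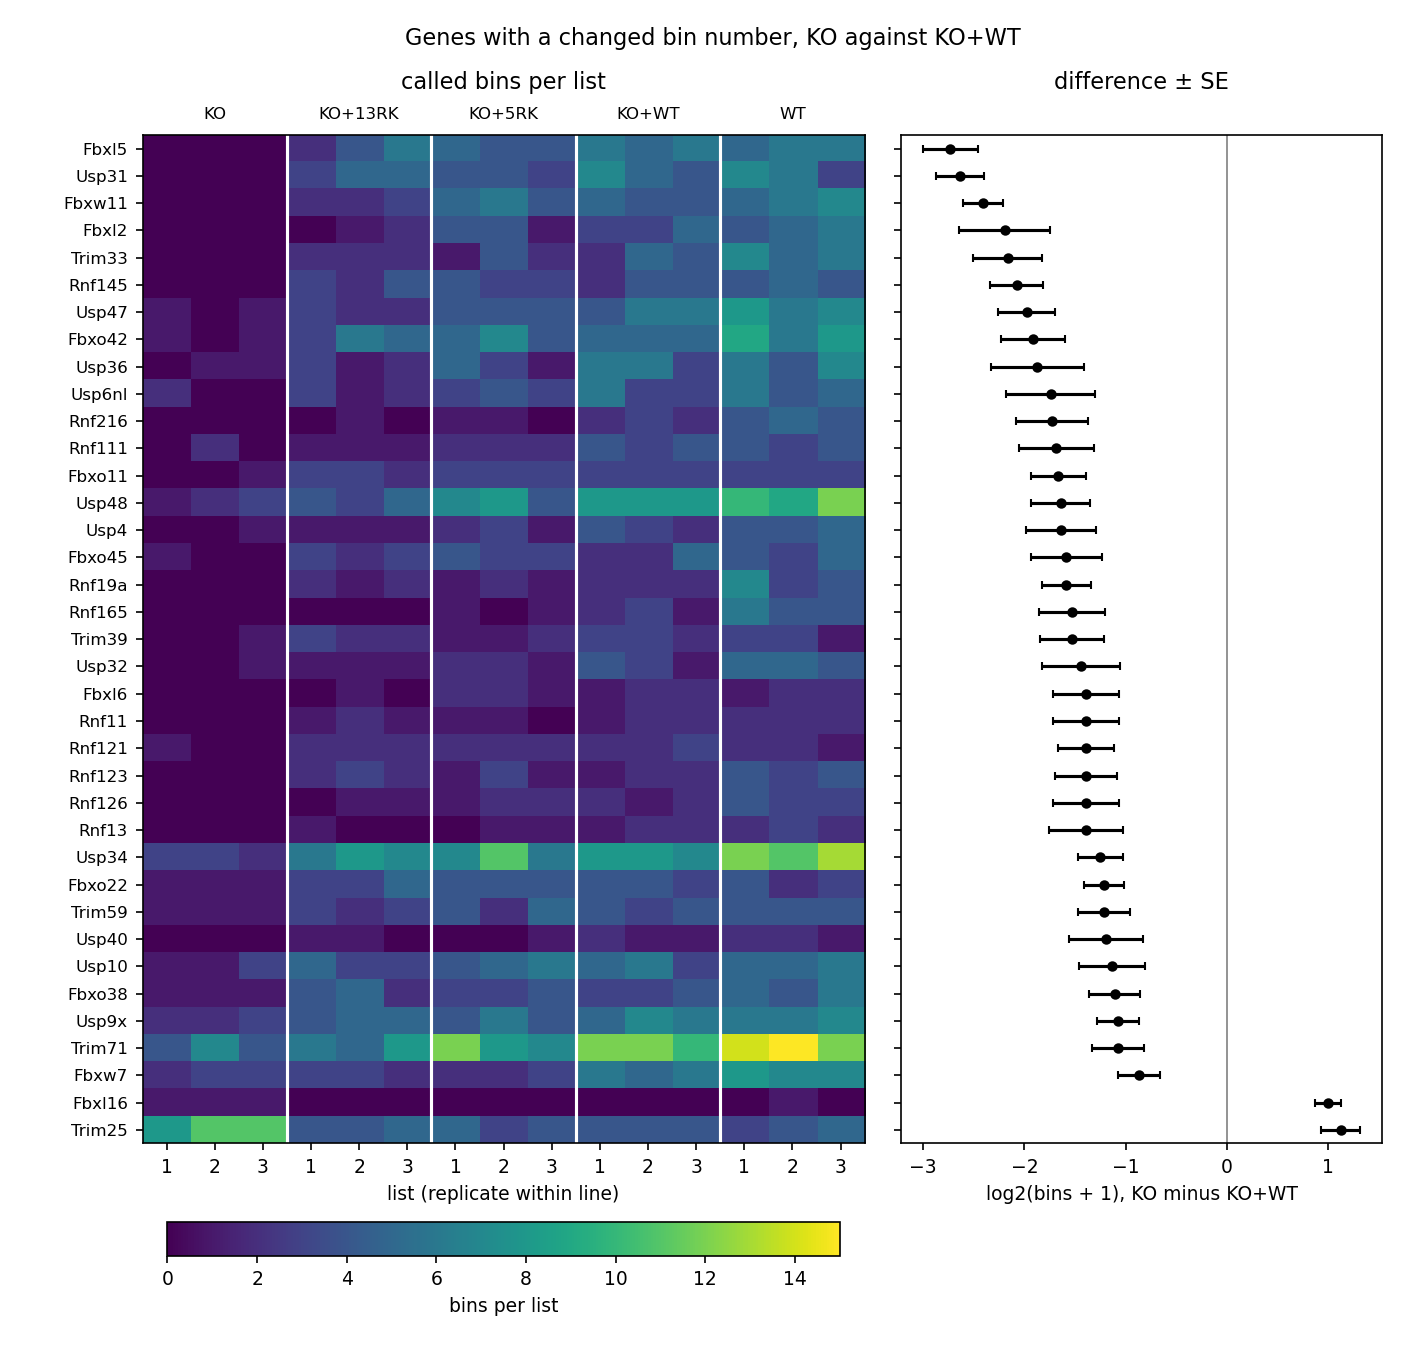
The 37 genes whose bin number differed between KO and KO+WT. Left, called bins in each of the 15 lists (colour scale in bins per list). Right, the difference in log2(bins + 1), KO minus KO+WT, with its SE from limma over 12 lists. The 35 upper genes are lower in KO, and Fbxl16 and Trim25 at the bottom are higher.

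The 6 called genes with the largest decrease had no bin in any KO list. Fbxl5, the iron-sensing F-box receptor that targets iron regulatory protein for degradation, had 2, 4 and 6 bins in KO+13RK, 5, 4 and 4 in KO+5RK, 6, 5 and 6 in KO+WT and 5, 6 and 6 in WT. Usp31, a deubiquitinase, had 3, 5 and 5 bins in KO+13RK, 4, 4 and 3 in KO+5RK, 7, 5 and 4 in KO+WT and 7, 6 and 3 in WT. Both were thus called in every list but those of KO. Fbxl5 lies on the minus strand at chr5:43744618-43782149 (GRCm38), and all its 6 distinct bins fell between 13647 and 14147 nt from its end. Usp31 lies on the minus strand at chr7:121642021-121707461, and its bin at chr7:121649322-121649421 was called in all 9 rescue and all 3 WT lists. The log2 difference, KO minus KO+WT, was -2.73 ± 0.27 for Fbxl5 and -2.64 ± 0.23 for Usp31 (SE; limma adjusted p = 0.000202 and 0.000114).

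Fbxw11, a WD-repeat receptor that recognises phosphorylated targets such as β-catenin, had no bin in KO, 2, 2 and 3 in KO+13RK, 5, 6 and 4 in KO+5RK, 5, 4 and 4 in KO+WT and 5, 6 and 7 in WT. Its KO+13RK lists lay below all lists of KO+5RK and KO+WT. On the plus strand at chr11:32642555-32746816, its bins 2042 and 1842 nt from the gene end were called in all 9 rescue and all 3 WT lists. The log2 difference between KO and KO+WT was -2.41 ± 0.20 (SE; limma adjusted p = 8.30e-05). Trim33, a chromatin reader and ligase of the Smad pathway, had no bin in KO, 2 in each KO+13RK list, 1, 4 and 2 in KO+5RK, 2, 5 and 4 in KO+WT and 7, 5 and 6 in WT (log2 difference -2.16 ± 0.34, limma adjusted p = 0.00208). Rnf145, a ligase of the endoplasmic reticulum in sterol regulation, had no bin in KO, 3, 2 and 4 in KO+13RK, 4, 3 and 3 in KO+5RK, 2, 4 and 4 in KO+WT and 4, 5 and 4 in WT (log2 difference -2.08 ± 0.26, limma adjusted p = 0.000756). In both genes the lists of all 3 rescue lines overlapped one another.

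Fbxl2 completed the 6, with no bin in KO, 0, 1 and 2 in KO+13RK, 4, 4 and 1 in KO+5RK, 3, 3 and 5 in KO+WT and 4, 5 and 6 in WT (log2 difference -2.19 ± 0.45, limma adjusted p = 0.00836). With bins scaled to the list total its call ended (-1.22, limma adjusted p = 0.0536), while the other 5 kept theirs under all 3 treatments of list length. All 6 of its distinct bins overlapped bins of Ubp1 on the opposite strand. The use of strand in the authors' calling is unknown, so these calls cannot be told apart from calls of Ubp1. The same holds for 18 of the 161 genes, whose bins mostly overlapped a bin of another gene, among them Fbxw7, Usp10, Fbxo22, Rnf123 and Trim13.

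Of the 83 genes called in all 3 KO+WT lists, 22 were in no KO list, which is 26.5%, against 25.7% of all genes so called. They were 10 Rnf genes (Rnf11, Rnf123, Rnf126, Rnf13, Rnf145, Rnf165, Rnf19a, Rnf216, Rnf220 and Rnf24), 4 Usp genes (Usp30, Usp31, Usp40 and Usp45), 4 Fbxl genes (Fbxl12, Fbxl2, Fbxl5 and Fbxl6), with Trim13, Trim33, Fbxo33 and Fbxw11. The share was close to that of all genes. Of 37 genes called in all KO lists, Fbxl16 alone was in no KO+WT list, against 5.67% of all genes. Against WT, where the calls chose the genes, 39 of the 112 were in no KO list, or 34.8%, beside 31.5% of all genes, and this is given as a description. There were 7 genes with calls in all 9 rescue lists and in no KO list: Fbxl5, Fbxw11, Rnf123, Rnf145, Rnf19a, Trim33 and Usp31. They were 5.38% of the 130 tested, against 3.94% of all genes tested. A two-sided Fisher's exact test of the 3 KO against the 9 rescue lists called 0 of the 130 genes after adjustment, with 32 (24.6%) under 0.05 before it, against 0 and 15.4% of all genes tested. Its smallest possible p is 0.00455, and the smallest adjusted p was 0.106. The 37 calls of limma above came from another contrast, KO against KO+WT alone.

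Other genes still had bins in KO. Usp48, a deubiquitinase of histone H2A, had 1, 2 and 3 bins in KO, 4, 3 and 5 in KO+13RK, 7, 8 and 4 in KO+5RK, 8 in each KO+WT list and 10, 9 and 12 in WT (log2 difference -1.64 ± 0.29, limma adjusted p = 0.0044). Its KO+13RK lists lay below all KO+WT lists, and a KO list and a KO+13RK list both held 3 bins. Usp34, a deubiquitinase acting on axin in Wnt signalling, had 3, 3 and 2 bins in KO, 6, 8 and 7 in KO+13RK, 7, 11 and 6 in KO+5RK, 8, 8 and 7 in KO+WT and 12, 11 and 13 in WT (log2 difference -1.25 ± 0.22, limma adjusted p = 0.00428). Usp9x, a broadly expressed X-linked deubiquitinase, had 2, 2 and 3 bins in KO, 4, 5 and 5 in KO+13RK, 4, 6 and 4 in KO+5RK, 5, 7 and 6 in KO+WT and 6, 6 and 7 in WT (log2 difference -1.07 ± 0.21, limma adjusted p = 0.0063). In Usp34 and Usp9x every KO list lay below every other list. With lists of equal length the call held for Usp34 (-0.83, limma adjusted p = 0.0363) and ended for Usp48 (-0.96, limma adjusted p = 0.0886) and Usp9x (-0.49, limma adjusted p = 0.237), and with bins scaled to the list total it ended for all 3.

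Fbxw7, the receptor that marks Myc and cyclin E for degradation, had 2, 3 and 3 bins in KO, 3, 3 and 2 in KO+13RK, 2, 2 and 3 in KO+5RK, 6, 5 and 6 in KO+WT and 8, 7 and 7 in WT. Here the mutant lists lay with KO and below all KO+WT lists. The log2 difference to KO+WT was -0.87 ± 0.21 in KO (limma adjusted p = 0.0169), -0.87 ± 0.21 in KO+13RK (adjusted p = 0.0829) and -1.01 ± 0.21 in KO+5RK (adjusted p = 0.0873), which share the KO+WT lists, and only the first passed 0.05. With lists of equal length the KO difference was 0.00, with bins scaled to the list total it was 0.10, and neither passed (limma adjusted p = 1 and 0.863). All 9 of its distinct bins overlapped bins of Gm37240 on the opposite strand.

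Rnf213, a very large ligase, had 0, 1 and 1 bins in KO, 5, 0 and 0 in KO+13RK, 3, 0 and 1 in KO+5RK, 12, 6 and 4 in KO+WT and 11, 12 and 10 in WT. KO lists lay below KO+WT lists, but the spread between lists was wide and the difference of -2.28 ± 0.74 did not pass (limma adjusted p = 0.0608). Rnf111, a ligase that amplifies nodal and TGF-β signals, had 0, 2 and 0 bins in KO, 1 in each KO+13RK list, 2 in each KO+5RK list and 4, 3 and 4 in both KO+WT and WT. The lists of the 3 rescue lines did not overlap, in the order KO+13RK, KO+5RK, KO+WT, and KO against KO+WT gave -1.69 ± 0.37 (limma adjusted p = 0.0115), which ended with lists of equal length (-1.06, limma adjusted p = 0.0802).

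The 2 genes called higher in KO were a Trim ligase and an F-box gene. Trim25, an RNA-binding ligase of antiviral signalling that also takes part in the uridylation of let-7 precursors, had 8, 11 and 11 bins in KO, 4, 4 and 5 in KO+13RK, 5, 3 and 4 in KO+5RK, 4 in each KO+WT list and 3, 4 and 5 in WT. Every KO list lay above every other list, and the log2 difference to KO+WT was 1.12 ± 0.19 (SE; limma adjusted p = 0.00356). With only bins of q under 0.005 the difference was 0.20 (limma adjusted p = 0.469) and the call ended. Fbxl16 had 1 bin in each KO list, none in any rescue list and 0, 1 and 0 in WT (log2 difference 1.00 ± 0.13, limma adjusted p = 0.000766). It met the filter of 3 lists through its KO calls alone, so its test could only come out higher. Its p-value is thus no evidence of a gain, and with any KO list left out it was not tested. Of its 2 distinct bins, 1 overlapped a bin of Gm26694 on the same strand. Its KO bin lay 327 nt from the annotated end of the gene, on chromosome 17 (GRCm38, 25820886 to 25820985). Mean bin number was highest in KO for 7 of the 161 genes, Trim25, Fbxl16, Rnf114, Rnf181, Rnf44, Trim32 and Usp33, and lowest in KO among the 4 lines with the knockout for 73. These were 4.35% and 45.3% of the 161, against 5.42% and 30.9% of all genes with a WT call.

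Fbxo42 and Fbxo22 held the most rescue bins among Fbxo genes. Fbxo42, with 1, 0 and 1 bins in KO, had 3, 6 and 5 in KO+13RK, 5, 7 and 4 in KO+5RK, 5 in each KO+WT list and 9, 6 and 8 in WT (log2 difference -1.92 ± 0.31, limma adjusted p = 0.00272). Fbxo22 had 1 bin in each KO list, 3, 3 and 5 in KO+13RK, 4 in each KO+5RK list, 4, 4 and 3 in KO+WT and 4, 2 and 3 in WT (-1.21, limma adjusted p = 0.00241), though its bins mostly overlapped those of Nrg4 and its difference was -0.06 with lists of equal length (limma adjusted p = 1). The call of Fbxo42 held there (-1.64, limma adjusted p = 0.0035) and ended with bins scaled to the list total (-0.94, limma adjusted p = 0.071). In both genes every KO list lay below every other list. Fbxl18, with 2, 4 and 2 bins in KO, had 2, 5 and 2 in KO+13RK, 5, 2 and 6 in KO+5RK, 3, 7 and 7 in KO+WT and 8, 5 and 11 in WT, and its lists overlapped between KO and KO+WT (-0.84, limma adjusted p = 0.213).

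By family, genes lower in KO than in KO+WT numbered 11 of 40 tested in Usp, 10 of 38 in Rnf, 4 of 21 in Trim (with 1 higher), 5 of 15 in Fbxo, 3 of 11 in Fbxl (with 1 higher) and 2 of 5 in Fbxw. In this order they were 27.5%, 26.3%, 19.0%, 33.3%, 27.3% and 40.0%. Of all genes tested 16.3% were lower, and 18.0% of those with a WT call, so Trim was near these shares. With lists of equal length, 3 of 37, 3 of 28, 1 of 16, 2 of 13, 2 of 8 and 1 of 4 were lower (all genes 9.61%). The other genes lower in KO included Usp47, a deubiquitinase of DNA polymerase β (log2 difference -1.98), Usp36, a nucleolar deubiquitinase (-1.87), Fbxo11 (-1.67), Rnf216 (-1.72) and Trim59 (-1.21). With lists of equal length the calls of Usp47 and Fbxo11 held, those of Usp36 and Rnf216 ended, and Trim59 turned to 0.33 (limma adjusted p = 0.719). With bins scaled to the list total, Usp47 and Fbxo11 lost their calls too (limma adjusted p = 0.0575 and 0.174). They kept them when scaled before 1 was added (limma adjusted p = 0.0283 and 0.0374). Several genes well known in stem cells or chromatin did not pass. Rnf2, the catalytic ligase of Polycomb repressive complex 1, had 1, 1 and 2 bins in KO, 1, 1 and 2 in KO+13RK, 2, 1 and 1 in KO+5RK, 3, 3 and 2 in KO+WT and 3, 2 and 3 in WT (-0.67 ± 0.28, limma adjusted p = 0.137). Its KO and KO+WT lists touched at 2 bins.

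Rnf20 and Rnf40, the ligase pair for histone H2B, gave differences of -0.33 ± 0.51 and 0.20 ± 0.53, and Rnf4, which targets SUMO-tagged proteins, gave -0.86 ± 0.34. None of these passed (limma adjusted p = 0.688, 0.856 and 0.119). The histone deubiquitinases Usp22, Usp16 and Usp21 gave 0.25 ± 0.61, -0.67 ± 0.45 and 0.00 ± 0.44 (limma adjusted p = 0.838, 0.355 and 1). Their lists overlapped between KO and KO+WT. Fbxo15, a marker of the pluripotent state, had 2 bins in a single KO+WT list, 2, 1 and 1 in WT and none in the other 11 lists, too few to be tested. Fbxo30, with a single bin in each of 3 lists, and Usp44, a deubiquitinase with 3 bins in all outside WT, were as sparse. Trim24 (-0.47 ± 0.23, adjusted p = 0.194), Fbxo5, the inhibitor of the anaphase-promoting complex (-0.47 ± 0.37, adjusted p = 0.452), and Fbxl12 (-1.39 ± 0.46, adjusted p = 0.0659) did not pass in limma.

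Among other genes of the ubiquitin system, taken from lists of named enzymes, 22 were lower in KO than in KO+WT and 4 higher, of 138 tested. These were 15.9% and 2.90%, beside 16.3% and 1.34% of all genes tested, so the lower share was near that of all genes. With lists of equal length 13 were lower and 8 higher of 119 (all genes 9.61% and 5.95%). None of 15 cullins and adaptors was called (limma, with 2 under an unadjusted 0.05), and 1 of 27 proteasome subunits, Psmc6, was lower. Of 29 other RING ligases 9 were lower and 2 higher, and of 26 E2 enzymes 4 were lower. Of 19 HECT and RBR ligases 3 were lower. Of 18 other deubiquitinases 4 were lower and 2 higher, and of 5 E1 enzymes 1 was lower. Dtx4, 1 of the 2 higher RING ligases, had 1 bin in each KO list and none in any rescue list. It met the filter of 3 lists through its KO calls alone, so its test could only come out higher. Otud6b, Zfp598 and Vcpip1, the others called higher, each had calls in 1 rescue list only, so they too needed their KO calls. The p-values of these 4 genes are thus no evidence of a gain. Birc6, a giant E2 and ligase hybrid that blocks apoptosis, had 0, 0 and 1 bins in KO, 2, 3 and 6 in KO+13RK, 8, 5 and 4 in KO+5RK, 10, 7 and 9 in KO+WT and 13, 15 and 10 in WT (log2 difference -2.93 ± 0.38, limma adjusted p = 0.000766). The giant ligase Herc2 had none in KO, 5, 4 and 4 in KO+13RK, 4, 6 and 4 in KO+5RK, 4, 4 and 5 in KO+WT and 4 in each WT list. The deubiquitinase Vcpip1 ran the other way, with 3, 3 and 2 bins in KO, 0, 0 and 1 in KO+13RK, none in KO+5RK or KO+WT and 2, 2 and 0 in WT.

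The comparisons of the mutants with KO+WT ask whether METTL14 that cannot be methylated at these arginines restores calls as the wild-type protein does. They share the KO+WT lists with each other and with the KO comparison. Limma called none of the 130 genes in KO+13RK against KO+WT, where 1.42% of all genes tested were lower and 0.0704% higher, and none in KO+5RK against KO+WT (0.469% and 0.129% of all genes). KO+13RK against KO+5RK also gave no call (0.164% and 0.0352%). At an unadjusted p under 0.05, limma gave 32, 13 and 12 genes in the 3 comparisons, or 24.6%, 10.0% and 9.23% of the 130, against 15.1%, 9.37% and 8.19% of all genes tested. The smallest adjusted p was 0.0513, 0.0873 and 0.158. The median log2 difference was -0.37 in KO+13RK and -0.14 in KO+5RK, each against KO+WT, beside -0.33 and -0.14 over all genes tested. Fisher's test was not run on 3 against 3 lists, since its smallest p there is 0.1.

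In 18 of the 130 genes every KO+13RK list lay below every KO+WT list, and in 2 above, beside 8.89% and 0.786% of all genes. For KO+5RK this held for 9 genes below and 0 above (4.55% and 1.08% of all genes). Fbxw7, Rnf111, Rnf169, Rnf216, Rnf227 and Usp24 lay below KO+WT in both mutants, Fbxl2, Fbxo28, Fbxw11, Fbxw2, Rnf165, Trim24, Trim35, Trim71, Usp4, Usp47, Usp48 and Usp53 in KO+13RK, and Rnf213, Rnf214 and Trim6 in KO+5RK. KO+13RK lists lay below KO+5RK lists in Fbxw11, Rnf111, Rnf135, Trim24, Usp46 and Usp47 and above them in Usp7 (3.2% and 0.985% of all genes), and limma called none of these. Usp7, a deubiquitinase of the p53 and Mdm2 pathway, had 0, 1 and 2 bins in KO, 2, 2 and 3 in KO+13RK, 1 in each KO+5RK and KO+WT list and 2, 1 and 3 in WT. Its KO+13RK lists lay above those of KO+5RK and KO+WT without passing limma, and KO against KO+WT gave -0.14 ± 0.34 (limma adjusted p = 0.838).

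Rnf165, a ligase related to Rnf111, had no bin in KO or KO+13RK, 1, 0 and 1 in KO+5RK, 2, 3 and 1 in KO+WT and 6, 4 and 4 in WT. KO+13RK against KO+WT gave -1.53 ± 0.33 (limma adjusted p = 0.0513), just short of the threshold. Of the 83 genes called in all KO+WT lists, 4 were in no KO+13RK list (Rnf165, Rnf227, Trim35 and Usp53; 7.19% of all genes) and 2 in no KO+5RK list (Rnf214 and Rnf227; 2.8% of all genes). These were sparse transcripts: in KO+WT, Usp53 had 2, 1 and 2 bins, Trim35 had 1, 2 and 1, Rnf214 had 1, 2 and 2, and Rnf227 had 1 in each list. Rnf122 was the single gain, with 1, 2 and 1 bins in KO+13RK, 1, 0 and 0 in KO+5RK and none in KO+WT (1 of 60 genes called in all KO+13RK lists, against 1.41% of all genes). KO+5RK gained 0 of 66 (1.68% of all genes). Rnf135 and Usp46 were called in all KO+5RK lists and in no KO+13RK list, 2 of 66 genes, against 4.57% of all genes, and 0 of 60 were called in all KO+13RK lists and in no KO+5RK list (1.6% of all genes). Mean bins increased at each step through KO, KO+13RK, KO+5RK and KO+WT in 25 of the 161 genes (15.5%), among them Trim71, Usp47, Usp48, Fbxl5 and Rnf111, against 7.41% of all genes with a WT call. The length of the lists increases in the same order, and its part in these counts was not tested.

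Merging bins that overlapped over all lists into regions gave 148 regions of these genes called in all 3 KO+WT lists, of which 107 (72.3%, against 70.9% over all genes) were in no KO list. Adjacent bins were not joined, so neighbouring bins of a gene count here as separate regions. Of the 107, KO+13RK lists held 60.7%, 54.2% and 65.4%, KO+5RK lists 80.4%, 80.4% and 70.1%, and WT lists 92.5%, 99.1% and 92.5%. All KO+13RK lists lay below all KO+5RK lists. Over all genes the means were 57.5% in KO+13RK, 70.7% in KO+5RK and 92.0% in WT, beside 60.1%, 76.9% and 94.7% here. WT calls chose the genes here and not the regions of all genes, so the WT shares are a description only. Regions of all genes with a WT call were not counted apart. Rnf regions were the least often called in the mutants, with means of 44.4% in KO+13RK and 57.4% in KO+5RK over 18 regions, and Fbxo regions stood at 70.8% and 87.5% over 16.

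**Figure D3:**
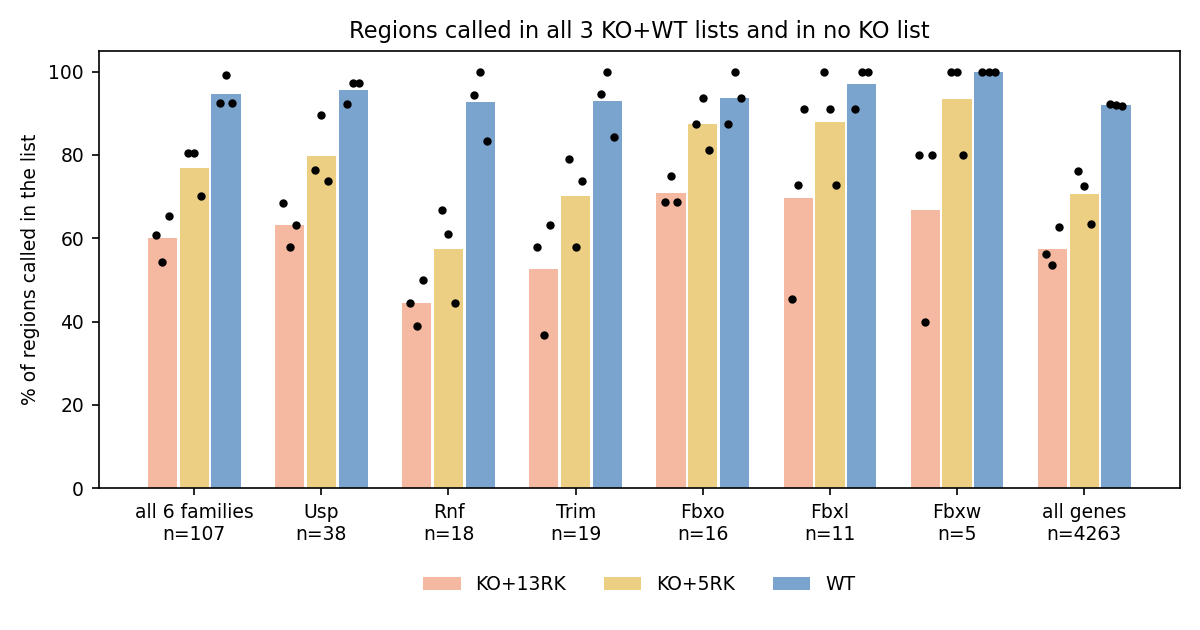
Share of regions called in all 3 KO+WT lists and in no KO list (n under each family) that KO+13RK, KO+5RK and WT lists also hold. Bars are means and points single lists. The 18 Rnf regions have the lowest mutant means, 44.4% in KO+13RK and 57.4% in KO+5RK.

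Bins were placed along each gene by their distance to the RefSeq start and end of the gene, which was known for 160 of the 161 genes. Whether a bin lies in an exon, an intron or a UTR was not analysed here. In KO, 12.9%, 15.5% and 13.1% of the genes' bins lay within 500 nt of the gene start, against 2.77%, 4.60% and 3.23% in KO+WT and 3.57%, 3.74% and 3.66% in WT. As numbers these shares were 12, 20 and 16 bins in KO, 8, 15 and 9 in KO+WT and 16 in each WT list, so KO and KO+WT overlapped in number and not in share. All other genes had 17.3 ± 1.00% of KO bins near the start, against 5.62 ± 1.59% in KO+WT, a difference in the same direction. Within 2000 nt of the gene end lay 9, 11 and 9 bins in KO, 41, 38 and 53 in KO+13RK, 64, 73 and 58 in KO+5RK, 79, 75 and 76 in KO+WT and 137, 124 and 121 in WT. As a share of placed bins this was 8.53 ± 1.15% in KO, 25.9 ± 2.47% in KO+WT and 29.1 ± 1.45% in WT (SD, n = 3). Other genes had 17.1 ± 1.48% of KO bins near the gene end and 31.5 ± 1.84% of KO+WT bins. With 3 lists a line, an exact permutation test could not go below p = 0.1, so no test is given.

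**Figure D4:**
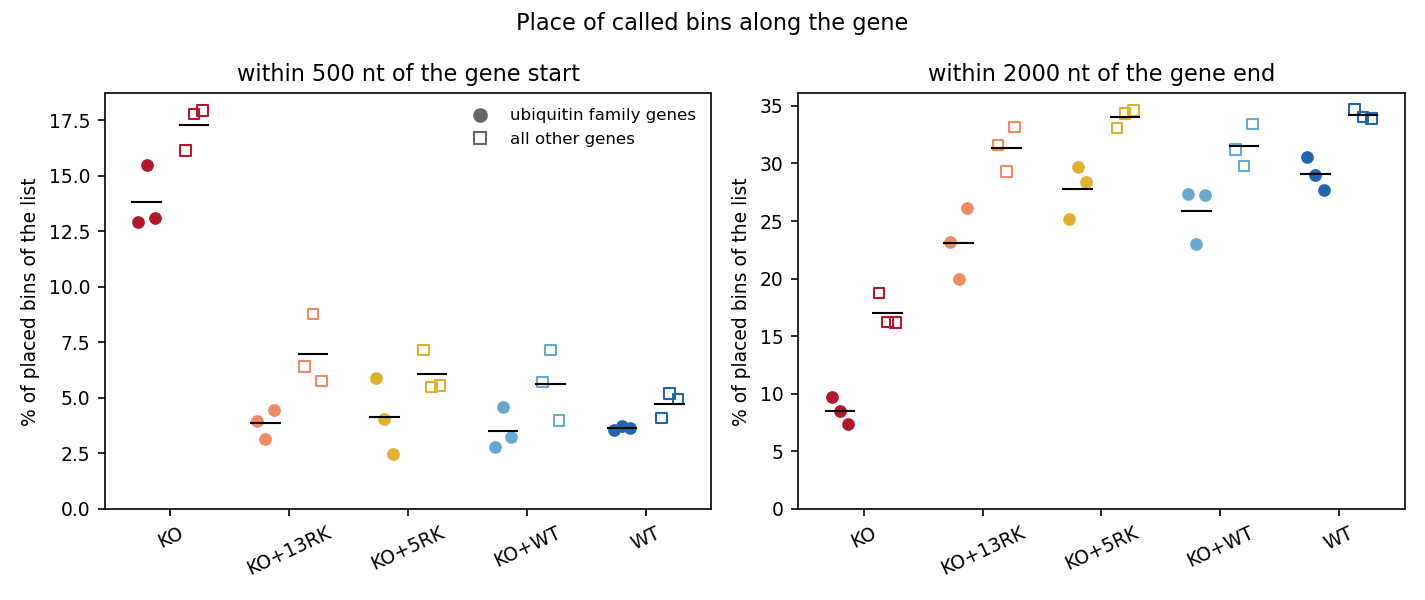
Share of placed bins within 500 nt of the gene start (left) and within 2000 nt of the gene end (right), by line. Filled circles are lists for the ubiquitin family genes, open squares the same lists for all other genes, and short bars are means of 3 lists. KO lists have the highest start shares (12.9% to 15.5% in the family genes) and the lowest end shares (7.38% to 9.68%).

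Of all 967 distinct placed bins of these genes, 57 (5.89%) lay near the start and 232 (24.0%) near the end. A total of 36 bins in 25 genes were called in all 9 rescue lists and in no KO list, and 0 of these lay near the start and 12 (33.3%) near the end. A total of 43 bins in 30 genes were called in all 3 KO lists, of which 6 (14.0%) lay near the start and 5 (11.6%) near the end. These sets of bins were not counted over all genes, so the shares describe these genes and show nothing particular to them. In all 15 lists 8 bins of 7 genes were called, in Trim25, Trim44, Usp33, Usp34, Usp5, Usp50 and Usp8. Usp50 and Usp8, which encodes an endosomal deubiquitinase, count the same place, since the bins of Usp50 overlap those of Usp8 on the opposite strand and lie beyond the RefSeq end of Usp50. There were 22 genes called in all 15 lists, among them 9 of the 42 Usp genes and 6 of the 24 Trim genes. The same count over all genes was not made, so whether 22 is many or few is unknown.

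Trim71, the stem cell ligase and RNA-binding repressor that let-7 targets, showed both kinds of bin in a single gene. It had 4, 7 and 4 bins in KO, 6, 5 and 8 in KO+13RK, 12, 8 and 7 in KO+5RK, 12, 12 and 10 in KO+WT and 14, 15 and 12 in WT (KO minus KO+WT -1.07 ± 0.26, limma adjusted p = 0.0171). All KO lists lay below all KO+WT lists. The call ended with lists of equal length (-0.52, limma adjusted p = 0.117) and in 4 of the 12 fits that left out a list (limma adjusted p up to 0.0592). The bin at chr9:114564234-114564333 on the minus strand, 86 nt from the gene start, was called in all 3 KO lists, 2 lists of each rescue line and all 3 WT lists. The bin next to it, 186 nt from the start, was called in all 3 KO lists, no KO+13RK list, 1 KO+5RK list, 2 KO+WT lists and no WT list. The pair at chr9:114563234-114563433, 1086 and 986 nt from the start, was called in all 9 rescue lists and all 3 WT lists and in no KO list. The bin at chr9:114512634-114512733, 1415 nt from the gene end, was called in these same 12 lists.

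Trim25 was the reverse case. The bin at chr11:89016777-89016876, 17423 nt from the gene start on the plus strand, was called in all 15 lists. The run at chr11:89009077-89009376, with its 3 bins in all 3 KO lists, was called in at most 2 lists of any rescue line and in no WT list. In all, 13 of its 19 distinct bins had a call in KO and none in WT. A bin 223 nt from the gene start was called in 2 KO lists and nowhere else. These 13 bins lay between 223 and 16723 nt from the gene start.

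**Figure D5:**
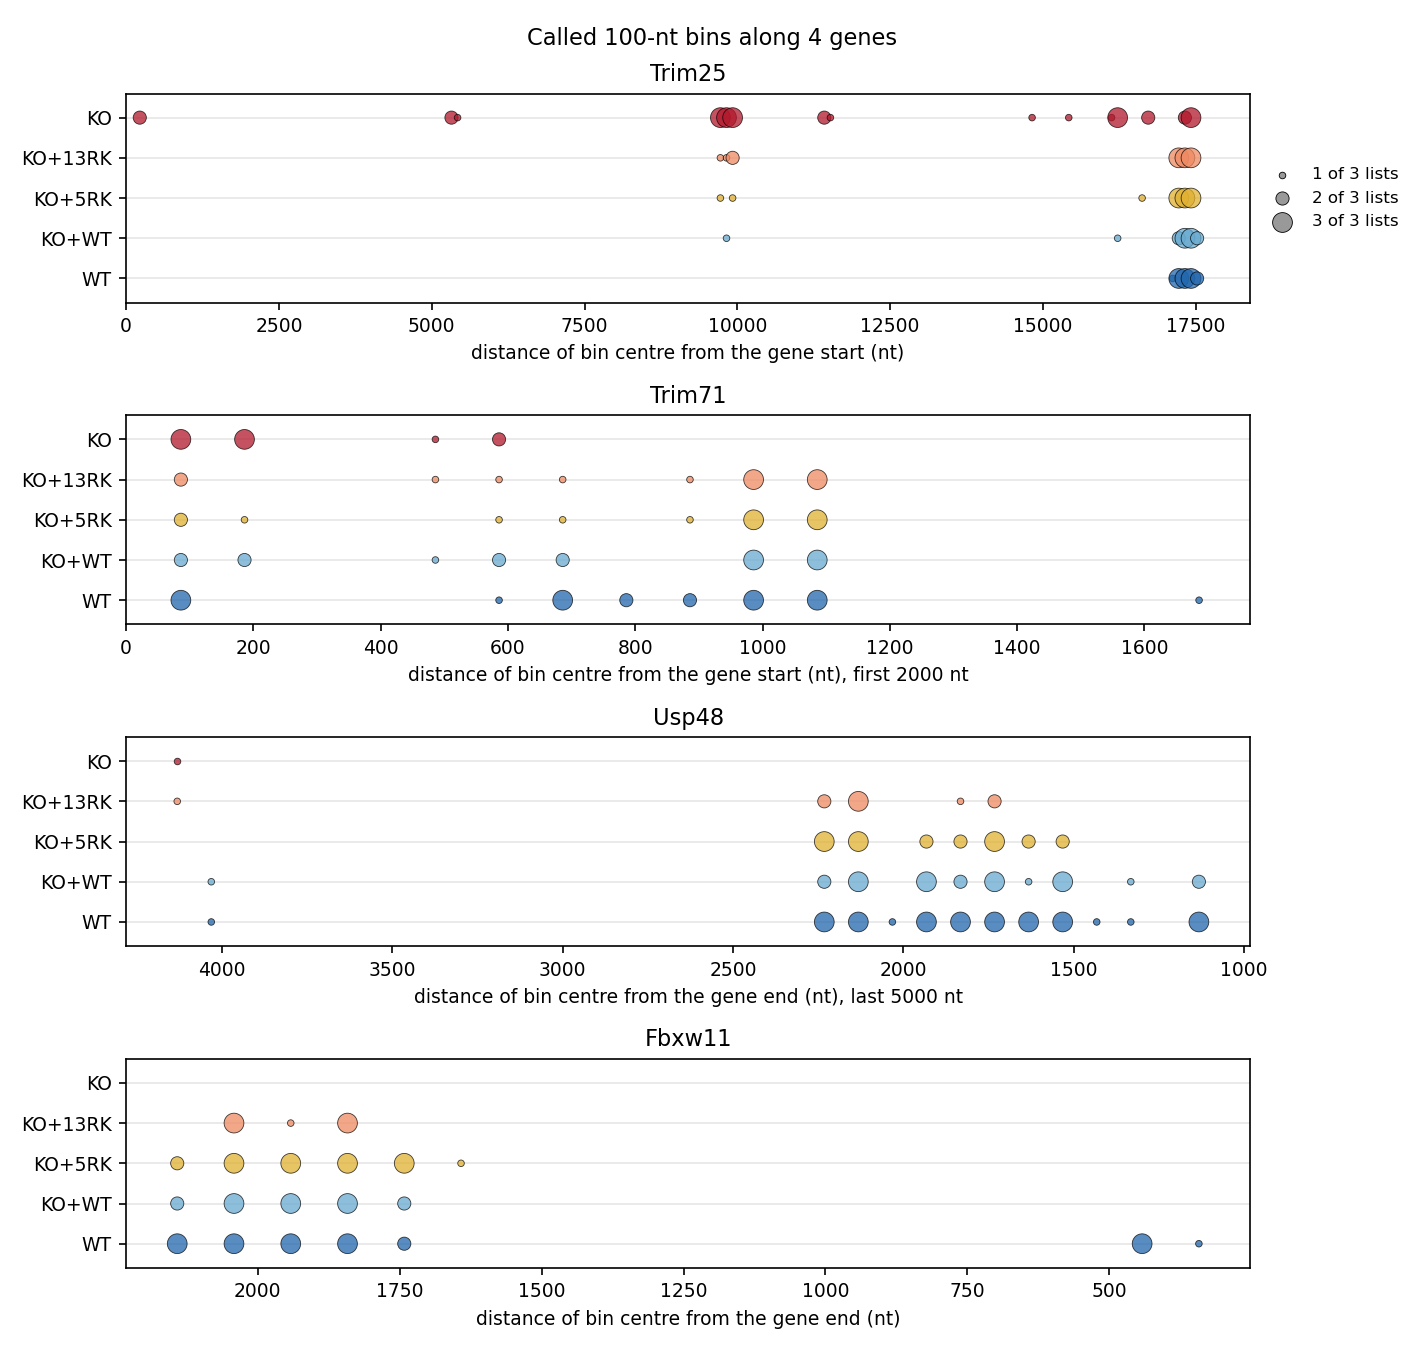
Called 100-nt bins along Trim25 (whole gene), Trim71 (start of the gene), Usp48 (end of the gene) and Fbxw11 (all bins), with KO on top and WT at the bottom. The horizontal axes give the distance of the bin centre from the gene start or gene end in nt, and the size of a point the number of lists of 3 that call the bin. Trim25 has bins along the gene in KO, Trim71 keeps the bin 86 nt from its start in KO, and Fbxw11 has none in KO.

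Calls near the start of a gene in at least 2 KO lists were found in 11 of the genes, among them Fbxl14, Trim25, Trim71, Usp11, Usp39, Usp49 and Usp5. The same count over all genes was not made. Other genes had a larger mean share of KO bins near the start, 17.3% against 13.8% here, so such calls are not particular to these genes. As background, the first transcribed base stands next to the cap of the messenger RNA, and where it is adenosine it can be methylated by another enzyme than the METTL14 complex. It is shown for the 5 of these 11 genes with a RefSeq promoter entry whose start is that of the gene. Each line gives the 50 bases before the annotated start in lower case and the start base itself as a capital, 5′ to 3′ on the gene's strand (RefSeq, GRCm38.p6).
Usp11, chrX:20703859-20703909, plus strand: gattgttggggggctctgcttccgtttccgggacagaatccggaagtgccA
Trim71, chr9:114564369-114564419, minus strand: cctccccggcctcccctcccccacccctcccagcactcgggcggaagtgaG
Trim25, chr11:88999353-88999403, plus strand: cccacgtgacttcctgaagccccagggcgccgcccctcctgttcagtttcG
Fbxl14, chr6:119479618-119479668, plus strand: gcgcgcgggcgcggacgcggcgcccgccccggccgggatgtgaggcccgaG
Usp49, chr17:47630640-47630690, plus strand: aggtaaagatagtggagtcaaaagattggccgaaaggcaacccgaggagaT
Of the 5, only Usp11 starts with A in this annotation. The bin 147 nt from its start was called in 3 KO lists, 2 KO+13RK lists, 3 KO+5RK lists, 3 KO+WT lists and 3 WT lists. Of 156 promoters of the 119 genes found in the table, 25.6% start with A and 55.1% with G, against 34.4% and 35.6% of all 32851 promoters. Annotated starts can differ from those used in these cells, and the part of the first base in these calls was not tested.

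Usp39, a splicing factor of the deubiquitinase family that lacks the enzyme activity, had start bins called in more lists of KO than of any other line. It had 2 bins in each KO list, 0, 0 and 2 in KO+13RK, 0, 1 and 0 in KO+5RK, 1, 1 and 0 in KO+WT and 2, 1 and 3 in WT, so KO lists lay above KO+WT lists. The difference of 0.92 ± 0.48 did not pass (limma adjusted p = 0.219), and with lists of equal length it was 1.58 (limma adjusted p = 0.0105). The bin 180 nt from its start was called in 3 KO lists, 1 KO+13RK list and 1 WT list. The bin 80 nt from its start was called in 2 KO lists, 1 KO+13RK list, 1 KO+WT list and 1 WT list. Usp5, which disassembles free ubiquitin chains, had 2, 4 and 2 bins in KO and 4, 3 and 3 in KO+WT. Its bin 115 nt from the start was called in all 15 lists, while the bin 350 nt from its end was called in all 9 rescue lists and all 3 WT lists and in no KO list.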

How the data were processed

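The 15 m6A lists of 5 lines (3 each) were used, and the 15 input libraries were not analysed here. Per the submitters' processing notes the tools were STAR 2.5.3a and kallisto 0.43.0 with GRCm38. The lists are labelled clam_peak, but the tools named in those notes include no peak caller. The use of strand in the calling and the read depth are not known from these sources. Per the labels, groups follow the line and replicate. Each deposited list gives, per 100-nt bin and Ensembl gene, the authors' enrichment score of immunoprecipitate over input, used only to rank bins within a list, and the authors' p-value and q-value, all under 0.05. The scale of the score is unknown, so only its rank was read.

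The number of bins per gene was put on log2(bins + 1) and fitted with limma 3.58.1 (R 4.3.3, trend) over the 12 lists of the 4 lines with the knockout. Genes called in at least 3 of 12 lists were tested, and p-values were adjusted by Benjamini-Hochberg over all 8526. WT lists were left out since they chose the genes. Presence of a call was tested with Fisher's exact test (scipy 1.17.1), over 3 KO against 9 rescue lists. Tables were joined in Python 3.11.15 with pandas 2.3.3, and symbols came from the name table. Regions joined bins overlapping by at least 1 nt and left adjacent bins apart, so 62091 distinct bins gave 60022 regions. The fit was tested on simulated data, where KO against KO+WT gave a larger share of false calls than the adjusted p aims for and missed most of the smaller changes. The numbers do not pair the lists, since correlations of deviations for same-numbered lists were -0.0373 to 0.0154.

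The genes, lists and tests were chosen with earlier results of these data known. Named genes were a preset list, the 2 most called genes of each family in rescue lists, up to 6 with the largest called change per direction, and genes lost or gained between lines. Others were named after their values were seen, among them Usp5, Usp39, Usp11, Usp47 and Usp36. Alternatives were the q limit, list length, scaling, pseudocount, filter, merged regions, replicate block and each list left out. Scaling before 1 is added and leaving out genes that share bins were chosen after seeing the data.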

Additional observations from a re-analysis of the deposited data

How the results depend on the processing

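Of the 161 genes, 37 differed between KO and KO+WT. This count was 16 with lists of equal length, 19 with bins scaled to the list total, and 15 when scaled before 1 was added. It lay between 27 and 41 under the stricter q, other pseudocount, other filters, merged regions and replicate block (35 with the block), and between 30 and 41 with any list left out. Merged regions are nearly the same as single bins, so that setting could change little. With q under 0.005, KO+13RK against KO+WT gave 3 calls and KO+5RK against KO+WT gave 1, against 0 in the text. Leaving out a list gave 0 to 2 calls in the first (2 without KO+5RK replicate 1 or 3, 1 without KO replicate 1 or 2, KO+13RK replicate 3 or KO+5RK replicate 2), 0 to 1 in the second (1 without KO replicate 1 or KO+5RK replicate 1) and 0 to 1 in KO+13RK against KO+5RK (1 without KO+WT replicate 3). The replicate block gave 0 calls in these 3. Genes lost numbered 39 in KO against WT and 14 at equal length. For KO against KO+WT they numbered 22, 8 at equal length and 34 when 2 of 3 lists sufficed. For KO+13RK against KO+WT, 4 became 2 with q under 0.005, 0 at equal length and 11 when 2 of 3 sufficed, and 5 to 9 with a list left out (7 and 9 without KO+13RK replicate 1 and 3, 8 without KO+WT replicate 2). For KO+5RK against KO+WT, 2 became 4, 0 and 4 in the same settings, and 2 to 4 with a list left out (4 without KO+5RK replicate 1 or 3 or KO+WT replicate 2). For KO+13RK against KO+5RK, 2 became 0 at equal length, 8 when 2 of 3 sufficed, and 3 to 5 with a list left out (4 without replicate 2 and 5 without replicate 3 of either line). Leaving out a list asks for fewer calls by construction. Bins per list with q under 0.005 were 57.0 in KO, 93.3 in KO+13RK, 111.0 in KO+5RK, 162 in KO+WT and 269 in WT. At equal length they were 133 in KO+13RK, 125.0 in KO+5RK, 141.0 in KO+WT and 142 in WT. Without the 18 genes that share bins, 32 differed between KO and KO+WT. Fbxl2 lost its call when scaled to the list total (-1.22, limma adjusted p = 0.0536). The other causes were not tested. Depth is unknown, and a bin that fell short of the authors' threshold cannot be told apart from an unmarked one.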
